A study of Mus musculus with 15 samples.

Results

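Integrins are cell surface receptors built of an alpha and a beta chain, through which cells hold on to the extracellular matrix and to each other. The results below follow 10 of these chains in a mouse line of mammary cancer cells named 6DT1, from the FVB/N1 strain: 6 alpha chains (Itga2, Itga3, Itga5, Itga6, Itga8 and Itgav) and 4 beta chains (Itgb1, Itgb3, Itgb5 and Itgb7). They were found by symbol among the 55341 genes of the count table, all 10 were present, and all 10 were among the 13085 genes with enough counts to be tested. Polyadenylated RNA was sequenced from 4 groups of libraries: CLIC4-knockout (KO) cells given 1 µM hydrogen peroxide (H2O2) for 24 h (n = 3), untreated KO cells (n = 4), wild-type (WT) cells given the same H2O2 (n = 4) and untreated WT cells (n = 4). The labels do not say how many KO clones were used, nor whether replicates came from separate cultures, so the p-values measure only the spread between these libraries, which may be technical.

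Which ligands an integrin binds depends on both chains. Itgb1 is the common partner of Itga2 (collagen), Itga3 and Itga6 (laminins), Itga5 (fibronectin) and Itga8 (nephronectin, fibronectin). Itgav pairs with Itgb1, Itgb3 or Itgb5 and binds ligands that carry an RGD peptide, among them vitronectin, fibronectin and osteopontin. Itgb7 is known from lymphocytes, where it pairs with Itga4 or Itgae and takes part in homing to the gut and in binding E-cadherin. Since bulk RNA was read, a lower level cannot be told apart from fewer cells with the transcript.

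The libraries held 12.3 to 16.0 M counts. Clic4, the gene that was knocked out, kept 0.222 times its WT level in untreated KO cells, with 71.3 ± 4.92 counts per M after TMM scaling (CPM; SD, n = 4) in KO and 321 ± 5.05 CPM (n = 4) in WT, and no library went against its group. The library titled WT untreated replicate 9 carries a knockout genotype in another label field and was kept as WT by its title; its Clic4 level was 327 CPM. That library also held leukocyte transcripts, with 45.7 CPM summed over 11 markers against 0.668 to 2.13 CPM in each of the other 14 libraries, and values of named genes that moved by over 1.5 times or changed their call without it are given both ways. Of the markers of mammary luminal epithelium, Krt8 stood at 646 ± 25.6 CPM in untreated WT cells, while Epcam and Cdh1 (E-cadherin) had 0 to 2 counts in every library of both genotypes.

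**Figure D1:**
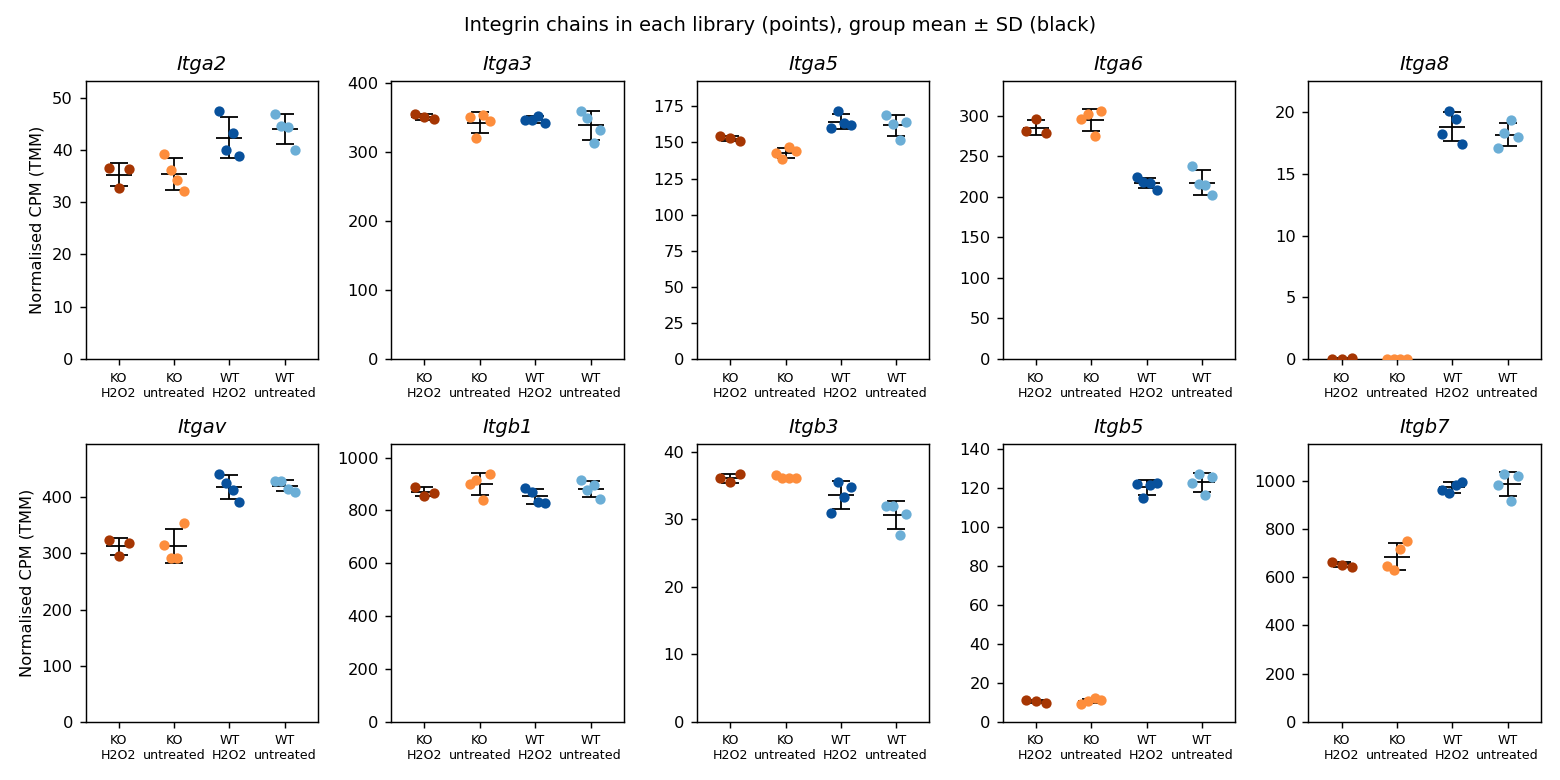
Normalised CPM of the 10 integrin chains in each library (points), with group mean and SD in black; each panel has its own linear axis starting at 0. Itga8 and Itgb5 lie near 0 in the 7 KO libraries and well above it in the 8 WT libraries, while Itga3 and Itgb1 lie at similar heights in all groups.

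Loss of Clic4 was first compared with wild type in untreated cells. Itga8 was not read at all in KO cells, Itgb5 was 11.5-fold lower, and Itgb7, Itgav, Itga2 and Itga5 were lower by 1.13- to 1.44-fold. Itga6 and Itgb3 were higher by 1.35- and 1.18-fold. Itga3 and Itgb1 did not pass the test. This made 8 of 10 chains called at an adjusted p under 0.05 (edgeR's quasi-likelihood test with Benjamini-Hochberg adjustment over the 13085 genes), 2 of them higher and 6 lower. Of all genes tested, 66.8% were called, 33.9% higher and 32.9% lower, so a count of 8 in 10 is near the background and says nothing particular of these chains. The median log2 fold change was -0.25 over the 10 chains and 0.00 over all genes tested. In 8 of the 10 chains the KO and WT libraries did not overlap, against 58.5% of all genes.

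Itga8, the alpha chain that with Itgb1 binds nephronectin, lies on chromosome 2 at 12106632 to 12301922 on the minus strand (GENCODE M21 on GRCm38, the mm10 assembly). It had 0 counts in each of the 4 untreated KO libraries, against 253, 258, 278 and 282 counts in untreated WT libraries. With 3 counts allowed over the KO group, which covers counting error only, Itga8 was at least 353.7-fold lower in KO (edgeR adjusted p = 6.69e-21). In H2O2-treated cells 1 count was found in 1 of 3 KO libraries, against 243 to 323 counts in each WT library. That ratio was 776-fold lower in KO, with a 95% exact binomial interval of 139 to 30674. Untreated WT cells held 18.2 ± 0.931 CPM of it (SD, n = 4). A gene overlapping it on the other strand, E030013I19Rik, held 21 counts over all libraries against 2190 for Itga8.

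Itgb5, which with Itgav forms a vitronectin receptor, lies on chromosome 16 at 33829665 to 33949338 on the plus strand. Its levels were 9.19, 10.4, 12.0 and 11.0 CPM in untreated KO libraries, against 122, 127, 116 and 126 CPM in untreated WT libraries. No KO library came near a WT library. The log2 fold change was -3.52 (SE 0.0595, 95% interval -3.64 to -3.40, edgeR adjusted p = 3.5e-27). At least 8-fold changes with an adjusted p under 0.05 were found in 3.55% of all genes, and Itga8 and Itgb5 were the 2 chains among them. With H2O2, Itgb5 stood at 11.1, 10.8 and 9.41 CPM in KO libraries and at 122, 115, 121 and 123 CPM in WT libraries.

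The 250 bases upstream of the annotated start of Itga8 and Itgb5 are shown because these are the chains with the largest loss, and those of Itgb1 because it did not pass the test in the same cells. The sequences are RefSeq's on GRCm38.p6, written 5′ to 3′ on the gene's own strand, at chr2:12301945-12302194 (minus), chr16:33829415-33829664 (plus) and chr8:128685404-128685653 (plus). Capitals mark GC boxes, the letters GGGCGG or, for the other strand, CCGCCC.
Itga8: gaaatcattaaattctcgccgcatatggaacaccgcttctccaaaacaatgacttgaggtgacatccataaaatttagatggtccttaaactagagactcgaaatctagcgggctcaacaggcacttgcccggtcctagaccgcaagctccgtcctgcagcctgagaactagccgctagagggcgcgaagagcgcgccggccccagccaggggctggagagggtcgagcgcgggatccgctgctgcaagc
Itgb5: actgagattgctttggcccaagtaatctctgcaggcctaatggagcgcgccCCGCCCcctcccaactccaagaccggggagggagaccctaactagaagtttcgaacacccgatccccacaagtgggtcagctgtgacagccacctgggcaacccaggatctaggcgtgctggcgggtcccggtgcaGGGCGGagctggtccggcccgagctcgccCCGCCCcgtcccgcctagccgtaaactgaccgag
Itgb1: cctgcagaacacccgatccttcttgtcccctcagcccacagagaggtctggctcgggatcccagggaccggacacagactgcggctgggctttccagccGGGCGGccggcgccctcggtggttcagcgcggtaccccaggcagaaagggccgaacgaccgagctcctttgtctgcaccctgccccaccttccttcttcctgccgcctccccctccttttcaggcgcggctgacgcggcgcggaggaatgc
Itga8 held 0 GC boxes, Itgb5 3 and Itgb1 1, and 32.7% of 32851 promoter windows of this length hold at least 1. None of the 3 windows held CCAAT (33.8% of all windows), the AP-1 letters TGANTCA (6.75%) or the E-box CACGTG (6.02%), searched on both strands, so no GC box overlapped another motif. CpG pairs numbered 18, 18 and 21 in the 3 windows, against a median of 6 over all windows. Promoters were matched for 8 of the 10 chains, and not for Itga6 and Itgb3.

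Among the other alpha chains, Itgav (RGD ligands; chromosome 2, 83724397 to 83806916, plus strand) stood at 314, 291, 293 and 355 CPM in untreated KO libraries, against 429, 429, 416 and 410 CPM in WT libraries. Every KO library was below every WT library, and the log2 fold change was -0.43 (SE 0.0517, edgeR adjusted p = 1.85e-07). Itga2, the collagen-binding chain (chromosome 13, 114833081 to 114932100, minus strand), had 39.3, 36.1, 34.2 and 32.1 CPM in KO and 46.9, 44.6, 44.3 and 40.1 CPM in WT. Its groups lay side by side without overlap, with a log2 fold change of -0.31 (SE 0.068, edgeR adjusted p = 0.000205). Itga5, the fibronectin receptor's alpha chain (chromosome 15, 103344286 to 103366763, minus strand), had 143, 138, 147 and 144 CPM in KO and 169, 163, 151 and 164 CPM in WT. That difference was small, with a log2 fold change of -0.18 (SE 0.038, edgeR adjusted p = 0.000145).

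Itga6, a laminin-binding chain (chromosome 2, 71745616 to 71858416, plus strand), went the other way. It had 296, 302, 275 and 306 CPM in untreated KO libraries and 238, 216, 214 and 202 CPM in WT libraries, again without overlap. The log2 fold change was 0.44 (SE 0.0436, edgeR adjusted p = 7.69e-10). Genes overlapping it, Gm13663 and Gm17250, held 175 and 132 counts over all libraries against 54652 for Itga6. Itga3, the other laminin-binding chain (chromosome 11, 95044474 to 95076801, minus strand), had 351, 321, 353 and 345.5 CPM in KO and 360, 350, 313 and 331 CPM in WT. Its libraries overlapped, and the log2 fold change of 0.02 had a 95% interval of -0.06 to 0.10 (edgeR adjusted p = 0.713). The sign of that small change turned with library totals only, and so did that of Itgb1 below. Itga6 per Itga3 in RPKM, reads per kilobase per M counts, was 0.904 ± 0.0729 in KO and 0.675 ± 0.0364 in WT (SD, n = 4 each).

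Itgb1, the shared beta chain (chromosome 8, 128685654 to 128733200, plus strand), had 901, 917, 841 and 939.7 CPM in untreated KO libraries and 913, 878, 896 and 841 CPM in WT libraries. The groups overlapped over most of their range, with a log2 fold change of 0.03 and a 95% interval of -0.05 to 0.10 (edgeR adjusted p = 0.520). Itgb3, the other RGD-binding beta chain described here (chromosome 11, 104608000 to 104670476, plus strand), had 36.6, 36.1, 36.2 and 36.1 CPM in KO and 32.1, 32.0, 27.7 and 30.9 CPM in WT. It rose by a log2 fold change of 0.24 (SE 0.056, edgeR adjusted p = 0.000424). Itgb7 (chromosome 15, 102215995 to 102231944, minus strand) had 645, 630.3, 718 and 748 CPM in KO and 981, 1030.2, 918 and 1019.9 CPM in WT. All KO libraries lay under all WT libraries, with a log2 fold change of -0.53 (SE 0.045, edgeR adjusted p = 8.71e-11).

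**Figure D2:**
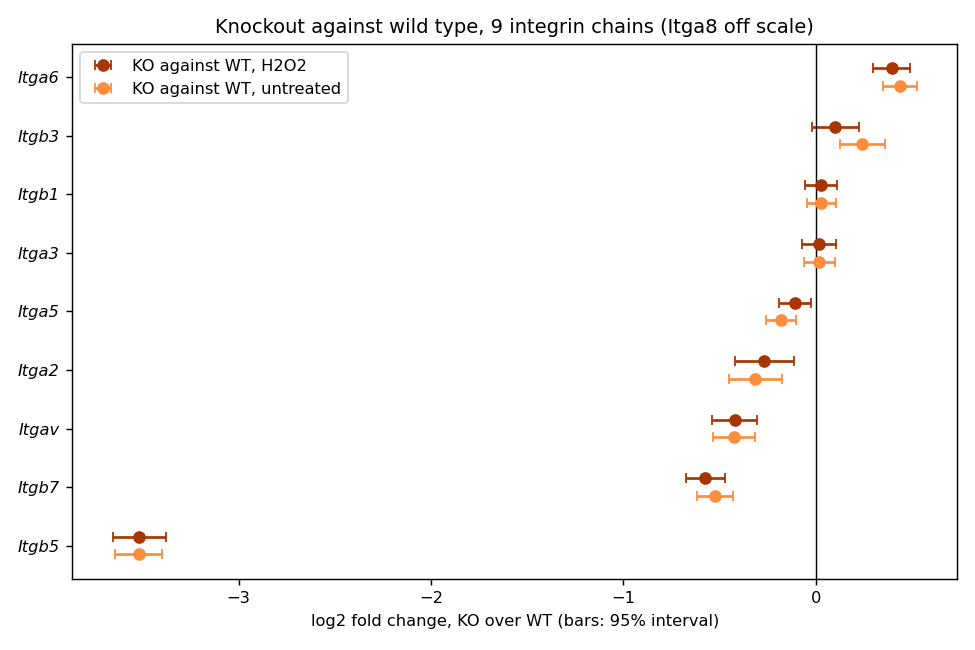
Log2 fold change of KO over WT with its 95% interval for 9 integrin chains, with H2O2 (dark) and untreated (light); Itga8 is off the scale. Itgb5 stands apart at -3.52 in both, 4 chains lie at or below -0.11 and Itga6 at 0.39 with H2O2 and 0.44 untreated, while the intervals of Itga3 and Itgb1 span 0 and that of Itgb3 spans 0 with H2O2.

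The same comparison was made in cells given H2O2. The libraries are other ones, but both comparisons come from 1 fit and share its estimate of spread. Of the 10 chains 7 were called, 1 higher (Itga6) and 6 lower (Itga8, Itgb5, Itgb7, Itgav, Itga2 and Itga5), against 65.4% of all genes, 33.0% higher and 32.4% lower. In 7 chains the KO and WT libraries did not overlap, against 66.4% of all genes. The median log2 fold change was -0.19 over the 10 chains and 0 over all genes. Itgb5 was again the chain furthest from 0 after Itga8, at -3.52 (SE 0.0676, edgeR adjusted p = 9.6e-26). Itgb7 had 665, 651 and 644 CPM in KO and 963, 948, 982 and 996 CPM in WT (log2 fold change -0.57, SE 0.0495, edgeR adjusted p = 1.04e-10). Itgav had 325, 295 and 318 CPM in KO and 443, 426, 414 and 392 CPM in WT (log2 fold change -0.42, edgeR adjusted p = 8.24e-07). Both kept a wide gap between the genotypes. Itga2 had 36.5, 32.7 and 36.4 CPM in KO and 47.5, 40.0, 43.1 and 38.7 CPM in WT, close but without overlap (log2 fold change -0.27, edgeR adjusted p = 0.0025). Itga6 had 281, 296 and 278 CPM in KO and 224, 219, 217 and 208 CPM in WT, again higher in every KO library (log2 fold change 0.39, edgeR adjusted p = 2.51e-08). Itga3 had 355, 350.3 and 347 CPM in KO and 346, 347, 353 and 342 CPM in WT. Itgb1 had 888, 855 and 868 CPM in KO and 884, 870.3, 831 and 829 CPM in WT. Neither passed the test, with 95% intervals of -0.07 to 0.10 for Itga3 and -0.05 to 0.11 for Itgb1. Itgb3 had 36.1, 35.5 and 36.8 CPM in KO and 30.9, 35.5, 33.4 and 34.8 CPM in WT, with a log2 fold change of 0.10 (95% interval -0.02 to 0.23, edgeR adjusted p = 0.140). Itga5 had 154, 153 and 151 CPM in KO and 160.4, 172, 163 and 162 CPM in WT, with a log2 fold change of -0.11 (edgeR adjusted p = 0.0241). Its groups did not overlap, and that call was lost without KO replicate 7, KO replicate 8 or WT replicate 14, with edgeR adjusted p of 0.0553, 0.0809 and 0.0897.

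H2O2 itself was compared with no treatment within each genotype; these comparisons share their untreated libraries with the genotype comparison above. None of the 10 chains was called in KO or in WT cells by edgeR, nor by DESeq2 or limma. Few genes were: 0.0535% of all genes in KO and 0.0153% in WT. Unadjusted p-values under 0.05 numbered 1 of 10 chains in each genotype. In KO cells this was Itga5, with 154, 153 and 151 CPM with H2O2 against 143, 138, 147 and 144 CPM without (log2 fold change 0.09, SE 0.041, edgeR adjusted p = 0.562). Its treated and untreated libraries did not overlap, as for 7.71% of all genes in KO and 3.81% in WT, where no chain was free of overlap. In WT cells it was Itgb3, with 30.9, 35.5, 33.4 and 34.8 CPM with H2O2 against 32.1, 32.0, 27.7 and 30.9 CPM without (log2 fold change 0.13, SE 0.056, edgeR adjusted p = 0.715). Apart from Itga8, which is near 0 in KO cells, the other log2 fold changes with H2O2 lay between -0.07 (Itgb7) and 0.03 (Itga3) in KO, and between -0.05 (Itga2) and 0.04 (Itga3) in WT, where Itga8 had 0.05. The 95% interval for Itgb1 was -0.13 to 0.03 in KO and -0.12 to 0.03 in WT. The difference of the H2O2 effect between KO and WT was called for 0 of 10 chains and for 0% of all genes by edgeR, with 0 chains and 808 genes at an unadjusted p under 0.05 and 10 genes called by DESeq2. Its log2 estimates ran from -0.14 (Itgb3, 95% interval -0.31 to 0.03) to 0.07 (Itga5, 95% interval -0.04 to 0.19) without Itga8.

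Levels of different chains can be compared per length only. In the deposited RPKM, the order in untreated KO cells was Itgb7 (902 ± 77.7), Itgb1 (289 ± 13.9), Itga3 (42.9 ± 1.96), Itga6 (38.7 ± 1.86), Itgav (31.6 ± 3.1), Itga5 (18.8 ± 0.507), Itgb3 (4.41 ± 0.027), Itga2 (3.29 ± 0.275), Itgb5 (1.91 ± 0.212) and Itga8 (0). In untreated WT cells it was Itgb7 (1327 ± 69.7), Itgb1 (289 ± 10.8), Itgav (43.4 ± 1.17), Itga3 (43.4 ± 2.75), Itga6 (29.2 ± 2.09), Itgb5 (22.6 ± 0.924), Itga5 (21.7 ± 1.03), Itga2 (4.18 ± 0.284), Itgb3 (3.81 ± 0.264) and Itga8 (2.74 ± 0.137), all SD with n = 4. Neighbours whose libraries overlapped were Itga3 and Itga6 in KO, and Itgav and Itga3, Itgb5 and Itga5, and Itga2 and Itgb3 in WT. Itgb5 thus stood ninth in KO and level with Itga5 in WT.

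The place of Itgb7 depends on the length used. The deposited RPKM of Itgb7 was divided by a length of 753 bases, while its longest GENCODE M21 transcript has 2683 bases, so that the length used was 0.281 times that transcript. For the other 9 chains that factor ran from 0.809 (Itgb1) to 1.75 (Itga6). By CPM per kilobase of the longest transcript, a scale added after that short length was seen, Itgb7 stood at 255 ± 21.2 and Itgb1 at 236 ± 11.1 in untreated KO cells, with overlapping libraries. In untreated WT cells the values were 368 ± 19.0 for Itgb7 and 231 ± 8.06 for Itgb1, without overlap. On either length Itgb7 and Itgb1 were the top pair in all 4 groups. The length does not enter the comparisons between genotypes.

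**Figure D3:**
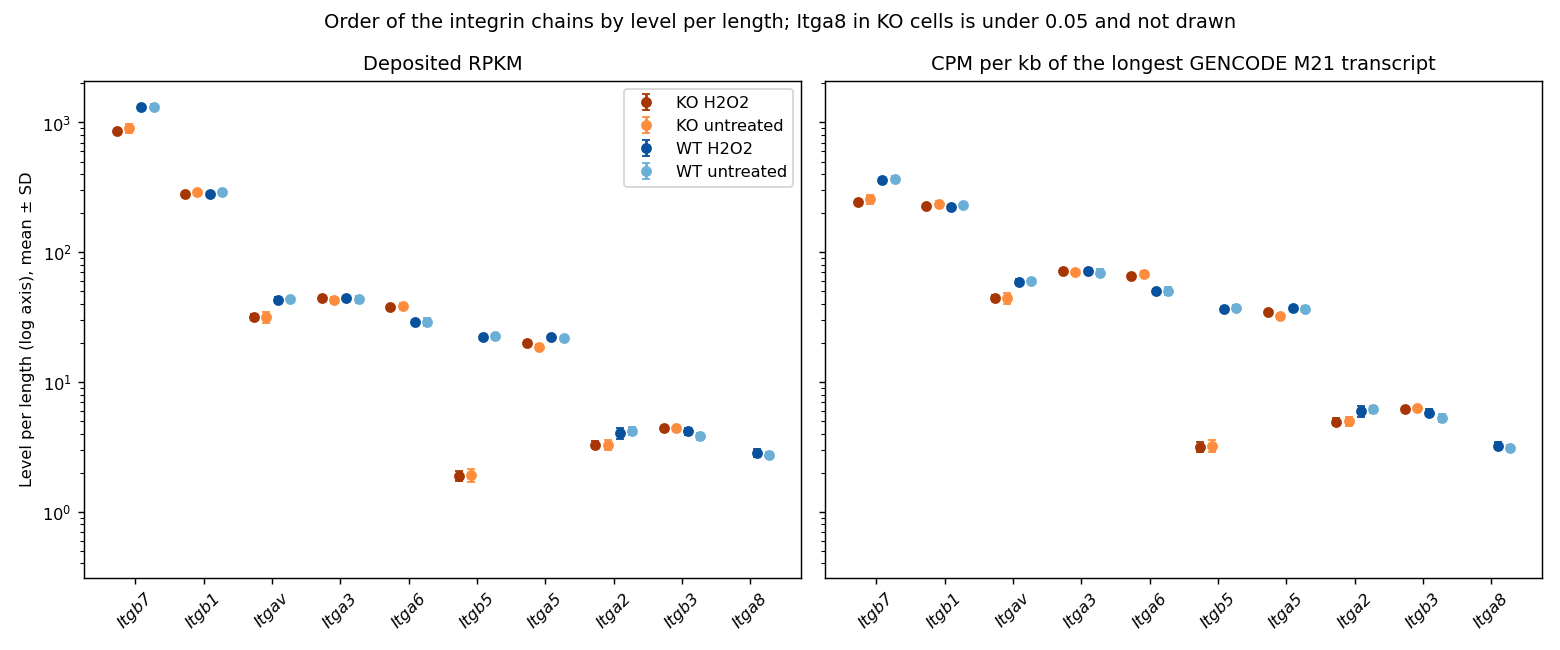
Level per length of the 10 chains on a log axis, as mean and SD of each group (KO H2O2, KO untreated, WT H2O2, WT untreated), in deposited RPKM (left) and in CPM per kilobase of the longest transcript (right). Itgb7 is further above Itgb1 on the left than on the right, and Itgb5 is among the lowest chains in KO cells and among the middle ones in WT cells.

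The chains that can share a receptor were set side by side as ratios of RPKM. Itgav per Itgb5 was 16.7 ± 2.45 in untreated KO cells and 1.93 ± 0.0785 in untreated WT cells, and with H2O2 16.9 ± 1.85 (n = 3) in KO and 1.96 ± 0.129 in WT. Itgb3 per Itgb5 was 2.33 ± 0.274 in untreated KO cells and 0.169 ± 0.00682 in WT, so Itgb3 was the higher of the pair in KO and the lower in WT. The 6 alpha chains summed to 0.469 ± 0.0189 times Itgb1 in KO and 0.500 ± 0.0175 times in WT. The longest transcript gives other values. On that scale the 6 alpha chains summed to 0.937 ± 0.0372 times Itgb1 in KO and 0.976 ± 0.0352 times in WT, and Itgav per Itgb5 was 13.8 ± 2.03 in KO and 1.60 ± 0.0651 in WT.

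The remaining integrin chains of the mouse, 17 in the list used, had 7 tested members, and in untreated cells 4 were called higher and 1 lower in KO, against 66.8% of all genes called (33.9% higher, 32.9% lower), the background of every list below. Itgb2, the beta chain of the leukocyte receptors, was abundant, with 475 ± 27.97 CPM in KO and 303 ± 12.5 CPM in WT (log2 fold change 0.65, SE 0.039, edgeR adjusted p = 1.43e-14). Itgax, an alpha partner of Itgb2, had 56 to 76 counts in each KO library and 3 to 11 in each WT library, a ratio of 9.22 (95% exact binomial interval 6.27 to 14.0). Itgb4, the partner of Itga6 in hemidesmosomes, had 24 to 43 counts in KO libraries and 1 to 6 in WT libraries, a ratio of 10.3 (5.95 to 19.3). Itga7, a laminin-binding chain, was lower, with 3.08 ± 0.576 CPM in KO and 4.97 ± 0.687 CPM in WT (log2 fold change -0.69, edgeR adjusted p = 0.000475). Mettl7b, which overlaps Itga7 on the other strand, held 715 counts over all libraries against 879 for Itga7. Its part in the Itga7 values was not tested. Itga10 had 4.29 ± 0.72 CPM in KO and 3.42 ± 0.229 CPM in WT (log2 fold change 0.33, edgeR adjusted p = 0.0477). Its libraries overlapped, and DESeq2 did not make the call (adjusted p = 0.118). Itga2b did not pass (log2 fold change 0.37, edgeR adjusted p = 0.0807). With H2O2, 5 of the 7 were higher in KO and 1 lower, against 65.4% of all genes called (33.0% higher, 32.4% lower). The smallest p-values belonged to Itgb2 (log2 fold change 0.63), Itgax (3.50) and Itgb4 (3.03).

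The known partners of Itgb7 were not found beside it. Itgae had 0 to 4 counts in every library. Itga4 had 0 or 1 count in 14 libraries and 202 counts in WT untreated replicate 9. Of the partners of Itgb2, Itgal had 0 or 1 count outside that library and 77 in it. Itgam had 48 to 56 counts in untreated KO libraries, against 96 in WT replicate 9 and 9 to 23 in the other 3 untreated WT libraries. Its log2 fold change was 0.53 with all libraries (edgeR adjusted p = 0.381) and 1.69 without replicate 9 (edgeR adjusted p = 2.44e-07). With H2O2 it was 2.03 (edgeR adjusted p = 0.0165). Ptprc, the pan-leukocyte gene, had 67 counts in replicate 9 and 0 in the other untreated libraries of both genotypes, and Lyz2 had 288 there, against 2 to 5 in untreated KO and 0 to 2 in the other untreated WT libraries. Itgb7 and Itgb2 were at similar levels in replicate 9 (981 and 299 CPM) and in the other untreated WT libraries (918 to 1030.2 and 291 to 321 CPM). Without replicate 9, 8 of the 10 chains were called. Among the 7 other chains tested, 4 were then higher and 1 lower, with Itgam called and Itga10 not (edgeR adjusted p = 0.0694). Of the lists below, the ligands had 13 higher and 8 lower without it, the adaptors 10 higher and 13 lower, the inhibitors 1 higher and 3 lower, and the membrane partners 8 higher and 3 lower.

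**Figure D4:**
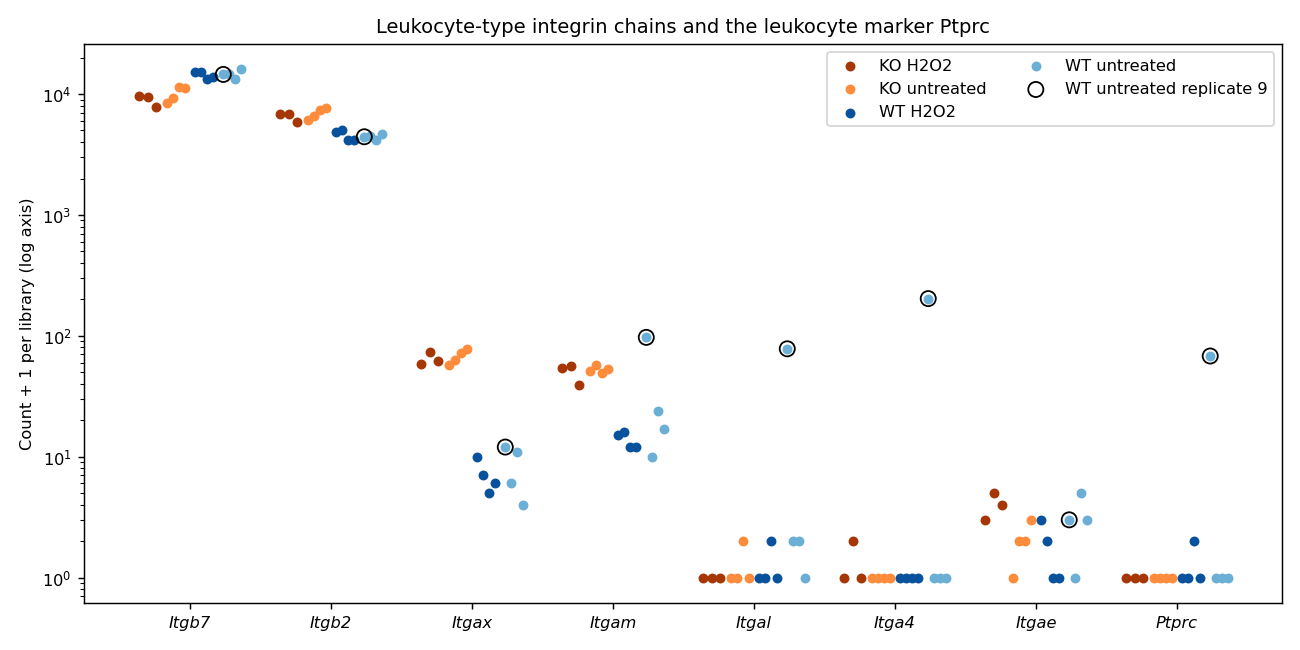
Count plus 1 per library on a log axis for leukocyte-type integrin chains and the leukocyte marker Ptprc in the 4 groups, with WT untreated replicate 9 circled. Itgb7 and Itgb2 have at least 4187 counts in all 15 libraries while Itga4, Itgal and Ptprc have 0 to 1 outside replicate 9.

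Integrin ligands had 24 tested members of 34, of which 13 were called higher and 8 lower in untreated KO cells, where 66.8% of all genes were called, with a median log2 fold change of 0.30 against 0.00 over all genes. Npnt (nephronectin, the ligand of the receptor with Itga8) had 42.1, 42.1, 42.7 and 37.3 CPM in KO and 2.16, 2.69, 2.23 and 3.00 CPM in WT. It rose 16.2-fold (log2 fold change 4.02, SE 0.092, edgeR adjusted p = 3.77e-24), in the same libraries in which Itga8 was not read. Fn1 (fibronectin) had 267, 244, 255 and 165 CPM in KO and 35.3, 33.6, 34.1 and 36.0 CPM in WT, 6.68-fold higher. Vcam1, a ligand of receptors with Itga4, rose 4.52-fold to 90.1 ± 16.0 CPM in KO, against 19.9 ± 2.03 CPM in WT. Edil3, an RGD-bearing ligand of Itgav receptors, had 1 count over the 4 KO libraries and 349 over the 4 WT libraries, 346-fold lower (95% exact binomial interval 61.7 to 13697).

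Lama3 and Lamb3, an alpha and a beta chain of laminins that Itga3 and Itga6 receptors bind, were both lower. Lama3 had 14 counts in KO and 367 in WT over the groups, 26.0-fold lower (15.3 to 48.0), and Lamb3 was 11.7-fold lower, with 11.1 ± 1.35 CPM in KO and 129.8 ± 9.01 CPM in WT. Spp1 (osteopontin), a ligand of Itgav receptors, rose by a log2 fold change of 1.81 (edgeR adjusted p = 2.82e-11), to 2682 ± 273 CPM in KO against 767 ± 39.2 CPM in WT. Icam1, a ligand of Itgb2 receptors, had 202 counts in KO and 10 in WT over the groups, a ratio of 20.4 (95% exact binomial interval 10.9 to 43.2). Of the 10 WT counts, 8 came from replicate 9, and without that library the ratio was 76.3 (20.9 to 635), with 202 counts in KO and 2 in WT. Spp1 and Icam1 were named after their values were seen. With H2O2, 13 ligands were higher and 9 lower in KO, where 65.4% of all genes were called. The 3 smallest p-values belonged to Npnt (log2 fold change 4.25), Lamb3 (-3.67) and Lamb1 (-1.05), the last a beta chain of other laminins, though other ligands changed further than Lamb1, among them Fn1 (3.02) and Vcam1 (2.25).

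**Figure D5:**
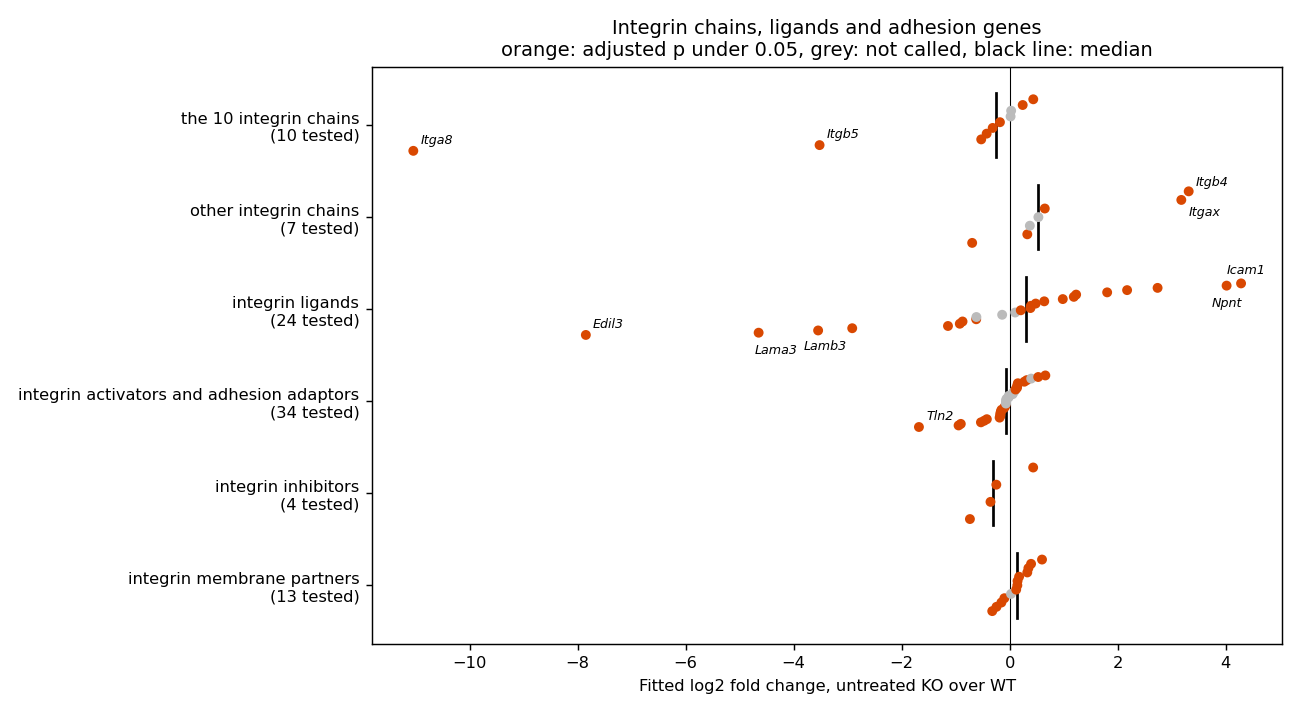
Fitted log2 fold change of untreated KO over WT for the tested members of each list, 1 point per gene (orange: adjusted p under 0.05; grey: not called), with the list median as a black line. Ligands spread to both sides, the adaptors, inhibitors and membrane partners stay within 1 log2 unit of 0 except Tln2, and the fitted points of Itga8 and Edil3 depend on 0 to 1 counts in KO cells.

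On the inner side of the membrane, 9 of 34 tested activators and adhesion adaptors were higher and 15 lower, a share near the 66.8% of all genes called, with a median log2 fold change of -0.07. Tln2, a talin that links beta chains to actin, was 3.2-fold lower, with 16.5 ± 1.35 CPM in KO and 52.9 ± 5.62 CPM in WT (log2 fold change -1.68, SE 0.077, edgeR adjusted p = 3.72e-16). The tensins, adaptors that bind beta chains, split: Tns4 and Tns2 were lower (log2 fold changes -0.95 and -0.53) and Tns1 and Tns3 higher (0.66 and 0.32). Nedd9, a scaffold of adhesion signalling, was higher by 0.53. All 4 inhibitors of integrin activation were called, in a comparison that called 66.8% of all genes: Dok1 was higher by a log2 fold change of 0.44, while Itgb1bp1 (-0.74), Sharpin (-0.35) and Flna (-0.25) were lower. Of 13 membrane partners 8 were higher and 4 lower, where 33.9% of all genes were higher and 32.9% lower, with Cav1 (0.60), Cd9 (0.40) and Sdc4 (0.35) at the upper end and Slc3a2 (-0.32), Cd63 (-0.24) and Cd47 (-0.15) at the lower end. None of the members of these 5 lists was called with H2O2 against untreated in KO or WT cells by edgeR; unadjusted p-values under 0.05 numbered 1 of 7 other chains, 1 of 34 adaptors, 0 of 4 inhibitors, 5 of 24 ligands and 3 of 13 membrane partners in KO, against 1041 of 13085 genes. In WT they numbered 1, 1, 0, 0 and 1 in the same order, against 847 of 13085 genes. In KO against WT with H2O2, the smallest p-values in these lists belonged to Tln2 (-1.61), Tns1 (0.67), Nedd9 (0.64), Cav1 (0.70), Cd9 (0.50), Cd63 (-0.29), Dok1 (0.49), Sharpin (-0.53) and Itgb1bp1 (-0.72), all log2 fold changes.

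Markers of other cell types were read beside these results. Summed over 8 fibroblast markers, of which 7 had counts and Lum had 0, untreated KO libraries held 11.3 to 14.0 CPM and untreated WT libraries 19.8 to 22.5 CPM, almost all from Pdgfra at 11.0 and 19.5 CPM. Over 6 endothelial markers, with Emcn at 0, the range was 3.1 to 3.77 CPM in KO and 0.850 to 3.51 CPM in WT, the highest WT value being replicate 9. Krt18, an epithelial keratin, was 153 CPM in KO and 334 CPM in WT while Krt8 was 649.5 and 646 CPM. Krt19, also an epithelial keratin, went the other way, with 156 CPM in untreated KO and 54.2 CPM in untreated WT cells. Elf3, a luminal marker too, had 4.48 ± 1.56 CPM in untreated KO and 0 in untreated WT cells, while Cldn4 had 0.0363 and 0.490 CPM. The 9 luminal epithelial markers summed to 926 to 983 CPM in untreated KO libraries and 997 to 1063 CPM in untreated WT libraries. Summed over each list, basal or myoepithelial, platelet and erythroid markers stayed at or under 1.90 CPM in every library. The part of any of these in the integrin results was not tested.

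Across all 15 libraries, the genes whose log2 CPM was most like that of a chain were described by Pearson's r; the points share the 4 groups, so r over all libraries contains the difference between genotypes. For Itga8 they were Impact, Dsp and Fndc3c1 (r = 0.999 each), for Itgb5 Cul9, Gata4 and Bcat1 (0.999, 0.999 and 0.998) and for Itgb7 Nucb1, Amdhd2 and Klhl21 (0.994 each). For Itgav they were Lgr6, Kcnk2 and Nes (0.990, 0.985 and 0.984), and for Itga6 Gsr, Pomp and Ttk (0.983, 0.982 and 0.981). After the mean of each group was subtracted, the gene most like Itgav was again Lgr6 (r = 0.963), that most like Itgb7 again Nucb1 (0.960) and that most like Itgb1 Actr3 (0.961).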

How the data were processed

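Bulk RNA-seq of 15 libraries was used. The authors deposited expected counts per gene and RPKM per gene; the submitters' processing notes name cutadapt, STAR, RSEM and build mm10, without versions, and the counts arrived as whole numbers. The deposited RPKM values equal count per library total per gene length, within a largest relative deviation of 6.88e-15 over 9805 genes, and all 23804 implied lengths were whole within 1e-06 bases; how those lengths were chosen is not given in the sources used here. The strand setting of the counting is not given either, so reads of genes that overlap on the other strand cannot be told apart from theirs.

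Differences were tested with edgeR 4.0.16 (quasi-likelihood, robust, TMM, filterByExpr, R 4.3.3, limma 3.58.1) in 1 fit of the 4 groups, with Benjamini-Hochberg adjustment over 13085 genes and calls under 0.05. Every adjusted p is from that fit unless another tool is named. DESeq2 1.42.0, other scalings and filters, limma on log2(RPKM + 0.1) and log2(RPKM + 1) and fits without each library were alternatives. The fit was tested on simulated data. Intervals and floors of 3 counts cover counting error only. Samples were grouped by title. The chains, the lists and the naming rule were chosen with earlier results of these data known. For the untreated genotype comparison, the rule named up to 3 genes a direction from each list, by size among called genes with at least 5 CPM and no overlap of libraries. It named every tested member of the other integrin chains, for the other comparisons the 3 smallest p-values, and for each chain the 3 most similar genes, of which some are printed.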

Additional observations from a re-analysis of the deposited data

Results flagged for a closer look

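Dixon's test at its 95% limit was run in 51 groups of 4 libraries of integrin chains, each with 10 counts or more in a library. It flagged 4 libraries as apart from the other 3 of their group. Chance gives about 1 flag in 20 groups, so a few of the 51 groups would be flagged by chance. The test sets a gap against the range of its group, so it can flag a small gap. In untreated WT cells replicate 9 was the flagged library for Itga4 (13.6 CPM, against 0 in the others), Itgal (5.20 CPM, against 0 to 0.0708 CPM) and Itgam (6.48 CPM, against 0.638 to 1.60 CPM). In untreated KO cells replicate 1 was flagged for Itgb3, where the gap was small (36.6 CPM, against 36.1 to 36.2 CPM).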

How the results depend on the processing

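No paired analysis was possible because every library carries its own replicate number. These numbers run from 1 to 16, but no library is numbered 6, and the KO H2O2 group holds replicates 5, 7 and 8. The number of chains called was 8 in untreated cells in every alternative and 6 to 7 with H2O2, and 0 in the H2O2 comparisons and their difference. The log2 fold change of Itga3 in untreated cells was -0.0153 with library totals only, -0.0134 with limma on log2(RPKM + 0.1), -0.0131 with limma on log2(RPKM + 1) and -0.0263 to 0.0485 without each library. For Itgb1 in untreated cells these were -0.00465, -0.00425 and -0.00424, and -0.00307 to 0.0532. For Itga3 with H2O2 the first 3 were -0.00987, -0.0089 and -0.00872. None of these was called. Of 24 further values of chains in the H2O2 comparisons and their difference, 14 changed sign in an alternative and 0 were ever called. Between untreated KO and WT, 6 chains changed their rank by RPKM. Part of that count rests on near ties: in WT, Itga3 stood just after Itgav, at 43.4 RPKM each with overlapping libraries. By the longest transcript Itga3 kept rank 3 in both genotypes. Itga10 kept its direction in untreated cells, and its call held in 5 of 24 settings, the reported one included (log2 fold change 0.09 to 0.41, highest adjusted p = 0.159 among edgeR, DESeq2 and limma fits); the cause was not tested. Over all genes, H2O2 against untreated in KO gave 7 calls by edgeR, 37 by DESeq2, 27 with no filter, 3 and 4 by limma and 0 to 21 without each library. In WT it gave 2 calls by edgeR, 9 by DESeq2, 12 with no filter, 0 by limma, 0 with only the groups compared and 0 to 13 without each library. The difference of the H2O2 effect gave 0 calls by edgeR, 10 by DESeq2, 5 with no filter and 0 to 3 without each library. Depth limits Itga8 in KO cells and the chains with under 100 counts a library.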
